A study of Drosophila melanogaster with 3 samples.

Results

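Neuron-leaning barcodes of the second of 3 single-cell libraries from larval chemosensory organs of Drosophila melanogaster are described here. A kept barcode, which is a bead sequence with counts for at least 200 genes, was chosen by measured values, its summed raw counts of 9 neuron genes (nSyb, Syt1, brp, cpx, para, futsch, nrv3, CadN and Rim). That sum had to be at least 2 and larger than the sum of 5 glia genes (nrv2, Gs2, Mdr65, wrapper and repo). In library 2, 120 of 214 kept barcodes met this rule and are called neuron-leaning (56.1%, exact binomial 95% interval 49.1 to 62.8), out of 506 kept and 1369 listed barcodes in the series. The other 94 kept barcodes of the same library are the set they are placed beside. Since the rule reads the counts themselves and all barcodes come from 1 library, every value is a description without a test, and each interval covers counting error only.

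All 3 libraries belong to 1 group with no treatment, genotype or second condition in the labels. Per the labels' protocols, fluorescent sense organs of 3rd-instar larvae were isolated manually, broken up with enzymes and run on DisCo, a droplet method for small cell numbers that pairs single cells with barcoded beads. The labels name neither the driver of the fluorescence nor the number of larvae pooled. Libraries 1, 2 and 3 held 508018, 689416 and 369432 counts, of which 97.9%, 94.9% and 93.6% lay in kept barcodes. No kept barcode of library 2 was kept in another library. A barcode is not taken to be a cell.

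In the fly larva the dorsal organ houses the olfactory neurons and the terminal and ventral organs house mainly taste neurons, alongside mechanosensory and temperature-sensing cells. An olfactory neuron uses Orco, the co-receptor that carries odorant receptors to the sensory cilium and forms the channel with them, together with a tuning receptor of the Or family. A few larval olfactory neurons are known to express a pair of tuning receptors, among them Or33b with Or47a and Or94a with Or94b. Sensory neurons of the head organs send cholinergic axons to the brain, and glia wrap the neurons and their axons.

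The neuron-leaning barcodes held 399585 counts, 61.1% of those in kept barcodes of library 2. Depth was very uneven among them. They ranged from 257 to 67425 counts with a median of 595, and the other kept barcodes from 260 to 157381 with a median of 427.5. The deepest 6 neuron-leaning barcodes held 62.2% of the counts of all 120, and the 24 with at least 2000 counts held 85.0%. Sums and CPM values (counts per 1000000 of the class) therefore mostly describe these 24. The other kept barcodes were dominated by the deepest barcode of the library, which held 61.8% of their counts. It had 745 neuron and 1107 glia counts of the rule's genes, so the rule placed it outside, and values are also given without it.

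Many barcodes lay close to the limits of the rule. Of the 120, 28 had exactly 2 neuron counts and 23 had 3, while 32 had 10 or more. The median neuron sum was 4 and the median glia sum 1, and 24 barcodes passed by a single count over glia. Just outside, 7 barcodes had 1 neuron count and no glia count, 17 had 2 or more neuron counts with an equal glia sum, and 20 had 2 or more neuron counts with a larger glia sum. A glia sum of 0 was found in 31 of the 120.

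**Figure D1:**
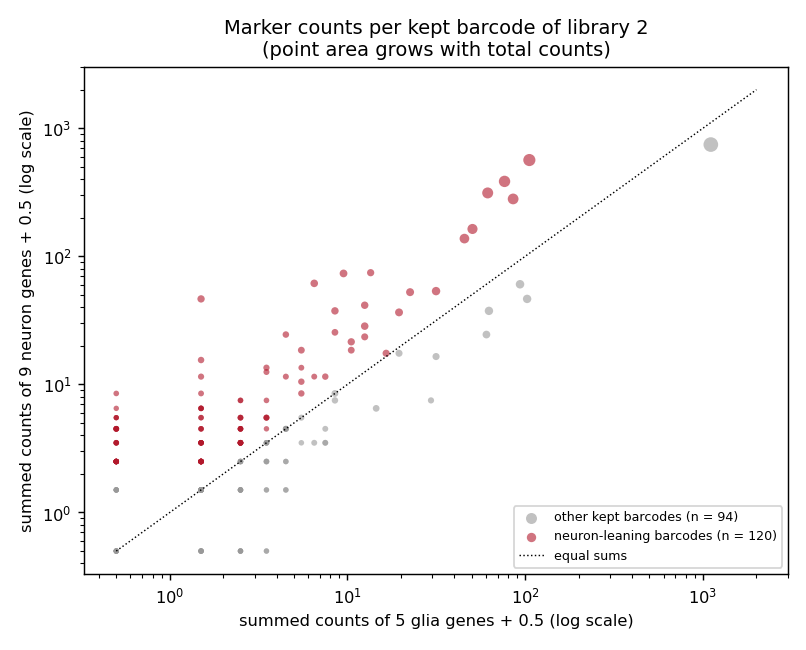
Summed counts of the 9 neuron genes (vertical, 0.5 added, log scale) against those of the 5 glia genes (horizontal, 0.5 added, log scale) for each kept barcode of library 2. The 120 neuron-leaning barcodes lie above the line of equal sums by construction, many at 2 or 3 neuron counts, and the deepest barcode of the library lies just below the line.

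Of the markers that go with the name, nrv3, a subunit of the neuronal sodium pump, was counted in 104 of the 120 barcodes. The sodium channel gene para was counted in 63 and futsch, a microtubule protein of axons, in 75. These belong to the rule, which needs counts of some of its genes but of no single one. Among the 24 barcodes with at least 2000 counts, nrv3 ran from 1429 to 6821 CPM with a median of 3705, and para from 212 to 8719 with a median of 1223. The pan-neuronal RNA-binding gene elav, which the rule did not use, was counted in 9 of 120 neuron-leaning and 5 of 94 other barcodes, at 42.5 and 47.2 CPM. By that marker the label is not borne out, and the barcodes are called neuron-leaning after the rule alone.

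Glia genes were present too. The 5 glia genes of the rule stood at 1864 CPM in neuron-leaning barcodes and 6680 CPM in the others. All 24 deep neuron-leaning barcodes carried them, from 205 to 3810 CPM with a median of 2036, against 4048 to 16544 CPM with a median of 7148 for the neuron genes. The glial marker gene repo was counted 6 times in 6 of the 120. The ratio of neuron to glia counts ranged from 1.06 to 46.0 over the 24, and whether barcodes with both hold a neuron and a glial cell was not tested.

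Orco (FBgn0037324, arm 3R) was not part of the rule. It was counted 307 times in 49 of the 120 neuron-leaning barcodes (40.8%, interval 32.0 to 50.2) and 88 times in 22 of the other 94 (23.4%, interval 15.3 to 33.3). The level was 768 CPM (interval 685 to 859) against 346 CPM (interval 277 to 426), a ratio of 2.22 (interval 1.75 to 2.85). Single barcodes ranged from 0 to 83 counts with a median of 0, and the ranges of the 2 sets overlap. The deepest of the other barcodes held 45 of their 88 Orco counts, and without it the ratio was 1.73 (interval 1.26 to 2.45).

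This ratio has to be read against all genes. Of 3367 genes with at least 20 counts that were not in the rule, 784 were at 2-fold or more higher in neuron-leaning barcodes (23.3%) and 682 at 2-fold or more lower (20.3%). A ratio of that size was therefore common in the library, and Orco alone does not stand apart by it.

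Since neuron-leaning barcodes were deeper, shares of barcodes with a count were also set at equal depth. When each barcode was thinned to 300 counts, Orco was expected in 16.9% of 112 neuron-leaning barcodes and in 12.4% of 82 others. Among the others, 37 glia-leaning barcodes, with at least 2 glia counts and more glia than neuron counts, gave 9.42%. In all barcodes of that class, at a median depth of 576 counts, Orco was counted in 23.7%. Glia are not known to use Orco, and it was counted in 9 barcodes of this class. Among them is the deepest barcode, with 745 neuron and 45 Orco counts, but each barcode has the same weight in these shares. Whether Orco in this class comes from neurons under the same barcode or from free RNA was not tested. In percentage points the gap between neuron-leaning and other barcodes was smaller at 300 counts than in the raw shares. Thinning lowers every share, so a smaller gap in points is not particular to Orco.

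Some other genes were also higher in neuron-leaning barcodes at equal depth. The neuronal transcription factor gene scrt was expected in 10.9% of neuron-leaning and 2.69% of other barcodes, and in 3.24% of glia-leaning ones. The sodium pump subunit gene nrv1, a relative of nrv3, gave 6.82%, 0.566% and 0.621%. For Or47a the order turned, at 8.76% in neuron-leaning and 9.69% in the others, and elav was at 1.00% and 3.59%. At 600 counts, which leaves 59 neuron-leaning and 26 other barcodes, both orders were the reverse, with Or47a at 21.1% and 16.4% and elav at 1.95% and 0.298%, so no order is read for them. Orco at that depth was at 27.9% and 16.1%. These genes were picked for the plot after their values were seen.

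**Figure D2:**
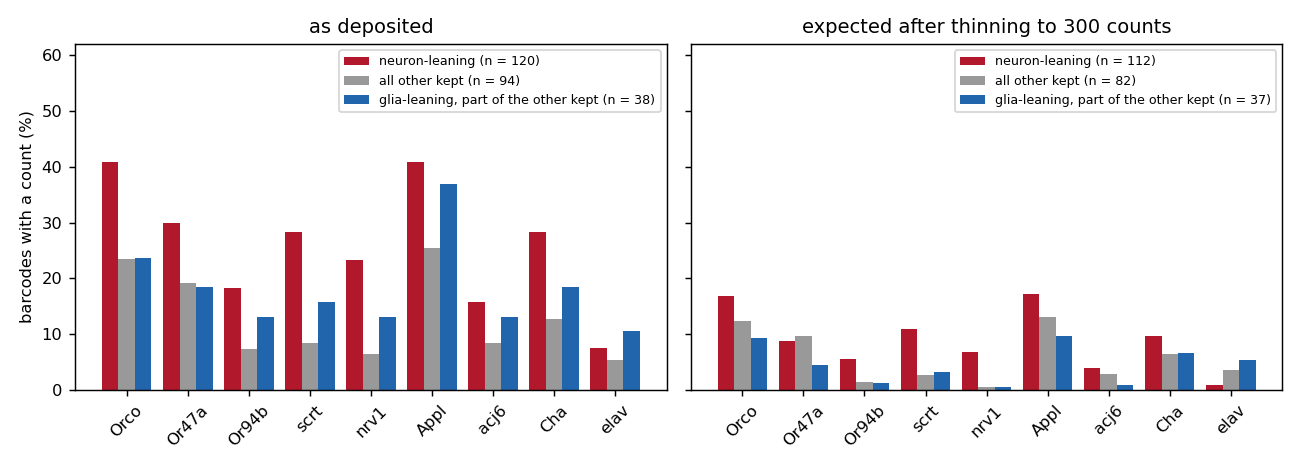
Percentage of barcodes of library 2 with at least 1 count of a gene, as deposited (left) and expected after thinning each barcode to 300 counts (right), in neuron-leaning, all other kept and glia-leaning barcodes, the last a subset of the others. Orco goes from 40.8% against 23.4% in the others to 16.9% against 12.4%. For scrt the shares go from 28.3% against 8.51% to 10.9% against 2.69%, and for nrv1 from 23.3% against 6.38% to 6.82% against 0.566%. All 3 genes stay higher in neuron-leaning barcodes, with gaps that are smaller in percentage points.

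Odorant receptor genes were the receptor family with the most counts. With Orco they reached 748 counts and 1872 CPM in neuron-leaning barcodes and 193 counts and 758 CPM in the others, a ratio of 2.47 (interval 2.10 to 2.91) and of 2.14 without the deepest other barcode. Of the 25 genes of the family named in the 3 libraries, 14 were counted in library 2 and 5 had at least 20 counts, and all 5 of these were at 2-fold or more higher, beside 23.3% of all genes. They were Orco, Or47a, Or33b, Or94a and Or94b. The minimum of 20 counts was taken over both sets together. Or33b and Or94a had fewer than 20 counts in the others and passed it through the neuron-leaning counts. This tally is thus a description and no support for a difference. The remaining 9 had from 1 to 17 counts, and 7 of them had fewer than 5 counts.

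Or47a (FBgn0026386, arm 2R) was counted 204 times in 36 neuron-leaning barcodes and 45 times in 18 others, at 511 and 177 CPM, a ratio of 2.89 (interval 2.08 to 4.08). With every barcode given equal weight its ratio was -0.060 on the log2 scale. Without the 6 deepest neuron-leaning barcodes it stood at 504 CPM (76 counts), close to the value with them. Or33b (FBgn0026391, arm 2L) was counted 37 times in 9 barcodes against 5 counts in 1 other barcode, the deepest of the library. Or94a (FBgn0039033) and Or94b (FBgn0039034), neighbours on arm 3R, had 94 and 84 counts in 21 and 22 neuron-leaning barcodes, at 3.15 and 2.33 times the CPM of the others. How reads matching both neighbours were counted is not given in the sources used here, so their separate counts are uncertain. Or24a was counted 12 times in 10 neuron-leaning barcodes and 5 times in 2 others. Or49b went the other way, with 2 counts against 7.

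The counts of these genes differed strongly between single deep barcodes, which are numbered here from 1, the deepest of the 24, to 24. Barcode 4 (38370 counts, 9.60% of all neuron-leaning counts) held 89 of the 204 Or47a counts (43.6%). It also held 24 of the 37 Or33b counts (64.9%, interval 47.5 to 79.8) and 83 of the 307 Orco counts. It had no count of Or94a and 3 of Or94b, so the pair of receptors known to share a larval neuron stood together and the other pair was near 0.

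The same pair of receptors led in a pair of shallower barcodes. Barcode 15, with 4871 counts, held 28 Or47a, 4 Or33b and 16 Orco counts and none of Or94a or Or94b. Barcode 22, with 2823 counts, held 6 Or47a, 3 Or33b and 8 Orco counts. These 3 were the only neuron-leaning barcodes with at least 3 counts of Or33b, and each also had at least 3 of Or47a. By sequence barcodes 15 and 22 each lay 3 edits from barcode 4 and 5 edits from each other, while the median over 7140 pairs of neuron-leaning barcodes was 8 edits and 0.140% of pairs lay within 3. Whether the 3 mark separate cells was not tested.

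Barcode 3 showed the other pair. It had 42197 counts (10.6% of the neuron-leaning counts) and held 66 of the 94 Or94a counts (70.2%, interval 59.9 to 79.2) and 44 of the 84 Or94b counts (52.4%, interval 41.2 to 63.4). Its Orco count was 42, and it had 11 Or47a counts and 1 Or33b count. It also had 7 of the 17 counts of sNPF, the gene of short neuropeptide F. No other barcode of the 24 had more than 4 Or94a or 8 Or94b counts.

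The counts of tuning receptors beside Orco varied. Barcode 2, with 50010 counts, held 52 Orco counts and 18 counts of all other odorant receptor genes of the file, against 117 beside 83 in barcode 4 and 124 beside 42 in barcode 3. It had 21 of the 72 counts of acj6, a POU-domain factor that selects odorant receptors in adult neurons, and barcode 3 had 14. Barcode 1, the deepest, had 20 Orco and 18 other odorant receptor counts. Over the 24, Orco ran from 0 to 3285 CPM with a median of 408, and 2 barcodes had none.

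Other sensory families peaked in different barcodes. Barcode 5, with 28073 counts, held 10 of 27 counts of the ionotropic co-receptor gene Ir25a (37.0%). It also had 6 counts of the bitter-taste receptor gene Gr33a and 9 of 20 counts of ppk23, a channel gene of contact chemosensory neurons, beside only 6 Orco counts. Barcode 13 held 3 Ir25a and 2 of the 6 counts of Ir76b, another ionotropic co-receptor gene. Barcode 9, with 7689 counts, had 10 ppk counts out of 46 and 8 ppk26 counts out of 43. These channel genes mark the class of body wall neurons that senses harmful stimuli.

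Transmitter genes also varied. The acetylcholine synthesis gene Cha and the vesicular transporter gene VAChT, which lies within its intron so that the 2 counts may overlap, had 32 and 29 counts in barcode 1, 31.1% and 31.5% of their neuron-leaning totals. Barcode 10, with 6849 counts, had 10 of the 92 VAChT counts and 10 of the 77 counts of CG7708, the older symbol of the choline transporter gene ChT. Barcode 17 differed from these, with 5 of the 15 counts of VGlut, the vesicular glutamate transporter gene, 13 of 116 scrt counts and para at 8719 CPM, the highest of the 24. It had no Orco count.

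**Figure D3:**
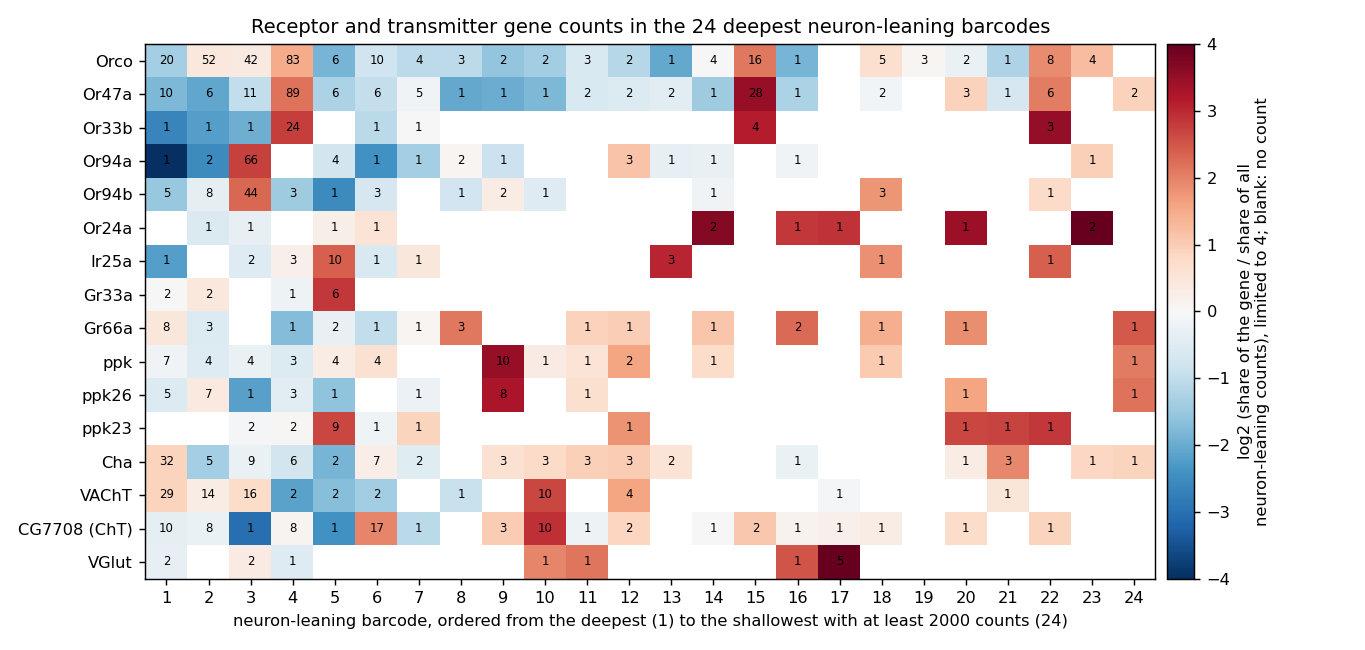
Counts of receptor and transmitter genes (rows) in the 24 neuron-leaning barcodes with at least 2000 counts (columns, deepest first); the number is the count, blank cells have none, and the colour is log2 of the share of the gene's neuron-leaning counts over the barcode's share of all neuron-leaning counts. Or47a and Or33b exceed the barcode's share of counts in barcodes 4, 15 and 22, Or94a and Or94b in barcode 3, ppk and ppk26 in barcode 9, and Ir25a, Gr33a and ppk23 in barcode 5. Or33b rests on 4 and 3 counts in barcodes 15 and 22, and Gr33a on 6 in barcode 5.

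Peaks of this kind were also common among other genes, which limits what a single peak shows. A gene was called gathered when a deep barcode had at least 5 of its counts and at least 4 times its share of all neuron-leaning counts, a rule set after the counts were seen. Of 2560 genes with at least 20 counts, 650 were gathered somewhere (25.4%), with a median largest fold of 2.77 over all 2560. Of the 12 receptor and channel genes with as many counts, 9 were gathered, with a median of 5.84. The largest folds were 11.3 for ppk in barcode 9, 11.3 for Or47a in barcode 15 and 9.67 for ppk26 in barcode 9. Barcode 15 lay 3 edits from barcode 4, and the fold of Or47a with near barcodes joined is not given here. When 10 neuron-leaning barcodes within 3 edits of a deeper one were added to it, 8 of the 12 and 24.4% of all genes were gathered. Orco reached 4.28, a value that 22.3% of all genes met, and Or94b 4.96, which 16.4% met. At 8-fold 3 of the 12 and 6.48% of all genes were gathered. At 2-fold it was 9 of the 12 (75.0%) and 73.9% of all genes, so the gap to all genes depends on the fold chosen.

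**Figure D4:**
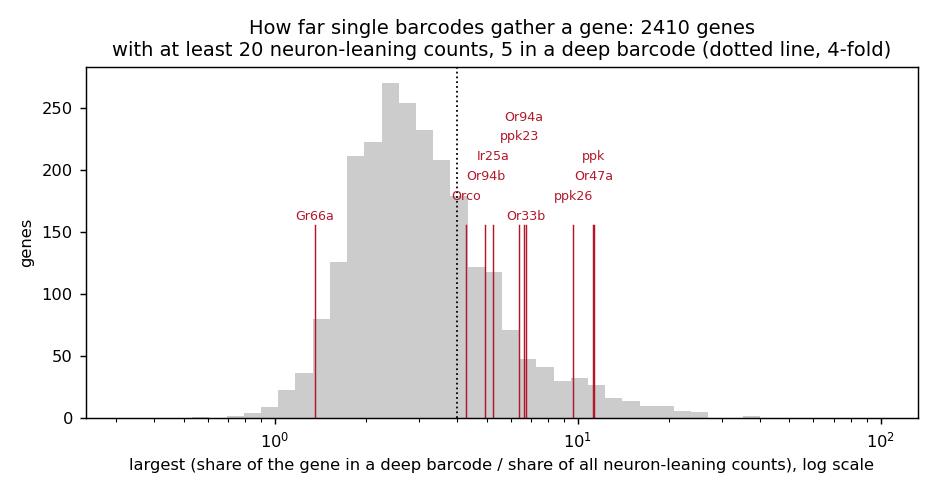
Number of genes (vertical) by the largest fold to which a single deep neuron-leaning barcode gathered them (horizontal, log scale), over the genes with at least 5 counts in a deep barcode; red lines mark receptor and channel genes. Or47a, ppk and ppk26 lie in the upper tail, while Orco lies close to the 4-fold line within the bulk. The Or47a value is that of barcode 15, which lies 3 edits from barcode 4.

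Pairs of receptors can be counted over all 120 barcodes. Of the 9 with Or33b, 8 also had Or47a, which was counted in 36. Of the 21 with Or94a, 8 also had Or94b, whereas 16 also had Or47a, a gene of the other pair. At 3 counts or more of each gene, Or33b and Or47a met in 3 of 3 barcodes with Or33b, and Or94a and Or94b in 1 of 3 barcodes with Or94a. Of the 9 with Or33b, 5 had Or94a and 6 had Or94b. Or33b was thus most often found with Or47a, which was also the most widely counted of the 4, while Or94a was found with Or47a more often than with Or94b.

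Genes of olfactory signalling outside the rule were higher as a group. Its 10 genes in the files had 1141 CPM in neuron-leaning and 428 CPM in other barcodes, a ratio of 2.66 (interval 2.16 to 3.31). All 5 genes with enough counts were at 2-fold or more higher, beside 23.3% of all genes. The minimum of 20 counts was taken over both sets together. In the others norpA, Snmp2 and Galphas had 18, 16 and 5 counts, so they passed it through the neuron-leaning counts. This tally is thus a description and no support for a difference. The 5 included Galphao, a G-protein subunit gene, at 380 against 165 CPM, and the phospholipase C gene norpA at 280 against 70.7 CPM. The phosphodiesterase gene Pde1c stood at 245 against 98.2 CPM, and Snmp2, a scavenger receptor gene related to the pheromone sensor Snmp1, at 135 against 62.9 CPM. For Snmp2 2 of the 16 other counts were left without the deepest barcode, and its ratio moved from 2.15 to 6.56 (interval 1.73 to 55.6). Snmp1 itself was counted once. Galphas, another G-protein subunit gene, was at 57.6 against 19.6 CPM, with a ratio without the deepest barcode of 2.79 (interval 0.690 to 24.5). In neuron-leaning barcodes with and without an Orco count the list stood at 1166 and 965 CPM (ratio 1.21, interval 0.892 to 1.67). Galphao and Snmp2 had ratios of 0.741 and 0.611 in that split, and both intervals included equal levels.

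Pan-neuronal genes outside the rule stood at 3681 against 2189 CPM (ratio 1.68). Of 11 tested, 3 were at 2-fold or more higher, a share near the 23.3% of all genes, and none was as much lower. Over the alternatives the ratio ran from 0.873, without the glia condition of the rule, to 1.86. Appl, the fly amyloid precursor gene, was at 881 against 358 CPM and jeb, a secreted ligand gene, at 1046 against 684. The RNA-binding protein gene fne and the axonal ankyrin gene Ank2 stood at 423 against 271 and 405 against 271 CPM.

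Synaptic vesicle genes outside the rule differed less (ratio 1.25, with 3 of 13 at 2-fold or more higher), with the syntaxin gene Syx1A at 568 against 393 CPM and Rbp, an active zone gene, at 501 against 354. The proton pump gene Vha100-1 and the Sec1 family gene Rop had ratios of 1.16 and 1.01. These shares of genes are near the 23.3% of all genes. The excitability genes had a ratio of 1.32, with 2 of 7 higher. Of these, SK, a calcium-activated potassium channel gene, was at 170 against 43.2 CPM, while Ih, slo and Sh lay at ratios of 1.02, 1.53 and 0.923, the last at 1.41 without the deepest barcode.

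Genes of ciliary transport, which builds the sensory cilium, had a ratio of 1.59, with 5 of 13 at 2-fold or more higher, beside 23.3% of all genes. Over the alternatives it ran from 0.922, without the glia condition, to 1.72. CG15666, the older symbol of BBS9, was at 893 against 511 CPM and BBS4 at 488 against 338. CG1126, the older symbol of BBS5, and the kinesin gene Klp68D had ratios of 2.27 and 1.38. Of 3 sense organ transcription factor genes with enough counts, acj6 was at 180 against 74.7 CPM and Rfx, a regulator of ciliary genes, at 67.6 against 11.8, while onecut was at 47.6 against 35.4.

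Transmitter genes ran in both directions. As a list they had 1216 CPM against 1910, a ratio of 0.637, but 1.01 without the deepest other barcode. Cha was at 258 against 118 CPM and VAChT at 230 against 141. The acetylcholinesterase gene Ace was at 303 against 825 CPM and the monoamine vesicle transporter gene Vmat at 92.6 against 393. Without the deepest other barcode, which held all but 38 of the 210 Ace counts, the Ace ratio moved from 0.367 to 0.774 (interval 0.533 to 1.15) and that of VAChT from 1.63 to 2.48, while Vmat was at 0.321. Axon guidance and adhesion genes were lower at a ratio of 0.707, led by Nrg at 1116 against 2240 CPM, Fas1 at 340 against 534 and Ptp10D at 60.1 against 185, while tutl was higher at 536 against 259. Without the deepest other barcode the ratio of this list was 0.813, and those of Nrg, Ptp10D and tutl were 0.609, 0.417 and 2.00. That of Fas1 was 0.787 (interval 0.553 to 1.14). Among genes of neuropeptides and their processing, Pal2 was at 353 against 122 CPM (ratio 2.90, and 1.90 without the deepest barcode), and Phm and svr had ratios of 1.06 and 1.17.

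The remaining receptor families differed little or rested on few counts. Pickpocket channel genes had 425 against 228 CPM (ratio 1.87), though none of the 4 with enough counts reached 2-fold, ppk and ppk26 being at 1.72 and 1.96, and ppk9 and ppk23 at 1.43 and 1.59. Gustatory receptor genes were at 208 against 161 CPM, with the bitter receptor gene Gr66a at 87.6 against 58.9 and Gr68a at 55.1 against 58.9. Ionotropic receptor genes were at 105 against 118 CPM, with Ir25a at 67.6 against 58.9. TRP and mechanosensory channel genes stood at 52.6 against 350 CPM (ratio 0.150). Of the 89 counts in the others, 18 were left without the deepest barcode, and the ratio was then 0.283. Most of their counts were of pain, a TRP channel gene with 8 against 56 counts, and Piezo, with 10 against 23, was the other one tested. Without the deepest barcode their ratios moved from 0.0910 to 0.177 and from 0.277 to 0.607 (interval 0.175 to 2.65).

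Odorant-binding proteins, which are secreted by the support cells around sensory dendrites, were abundant in both sets. They took 2.12% of the neuron-leaning and 1.68% of the other counts, and without the deepest other barcode the order turned, at 2.12% against 24883 CPM. Obp56h, Obp56b, Obp49a and Obp28a were each counted in at least 106 of the 120 barcodes, at 6046, 5255, 4938 and 2370 CPM. Their ratios of 1.33, 1.34, 1.22 and 1.27 all fell below 1 without that barcode. How much of any count comes from outside the cell that a barcode marks was not tested.

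**Figure D5:**
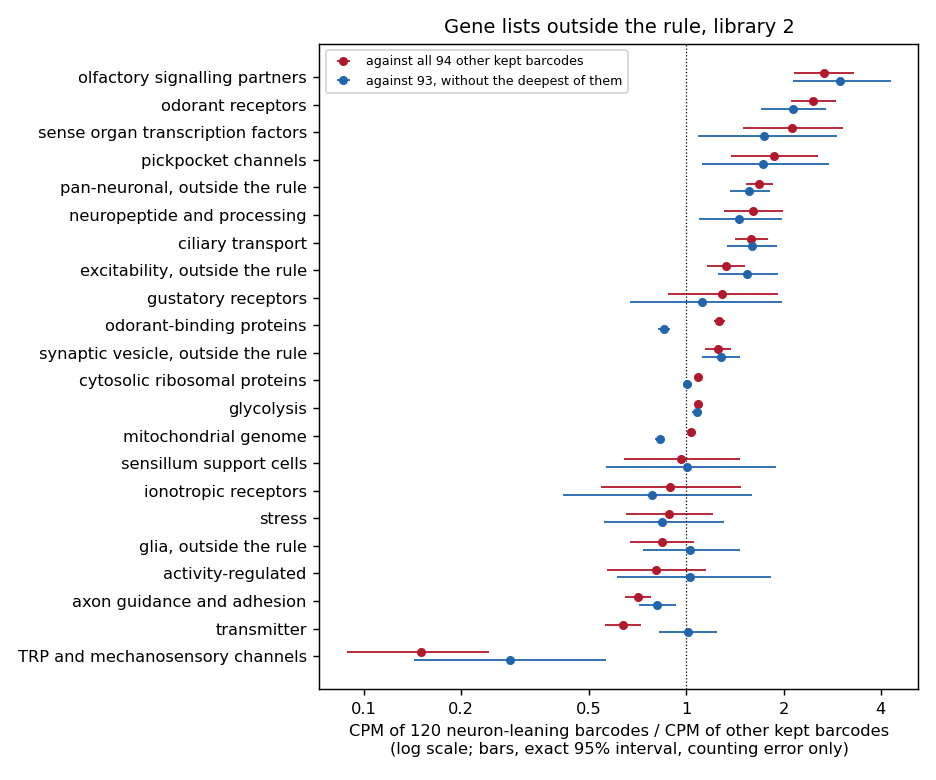
CPM in the 120 neuron-leaning barcodes over CPM in the other kept barcodes of library 2 (horizontal, log scale) for gene lists outside the rule with at least 50 counts, with exact 95% intervals for counting error; red, against all 94 others, and blue, against 93 without the deepest. Olfactory signalling partners and odorant receptors lie highest and TRP and mechanosensory channels lowest, and odorant-binding proteins and transmitter genes change side or reach 1 in blue.

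Markers of epidermis, muscle, hemocyte, fat body, trachea and salivary gland were at low levels. Glia and support cell genes outside the rule had more counts. Glia genes outside the rule had 455 against 542 CPM, in 46 of 120 and 24 of 94 barcodes. Of the 4 tested, the trehalose transporter gene Tret1-1 was at 108 against 291 CPM and Indy at 32.5 against 90.4, but nrv1 was higher at 215 against 66.8 and Cont was at 65.1 against 35.4, with a ratio of 1.84 that was 1.05 without the deepest barcode. Support cell genes were at 155 against 161 CPM, with pros counted 39 and 14 times and spz 7 and 18 times, the latter 4 without the deepest barcode. Epidermis, muscle, hemocyte and fat body genes had 9, 24, 1 and 1 counts in all 120 barcodes, trachea genes 25 and salivary gland genes 29. The latter were all of fkh, of which 23 lay in barcode 1.

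General cell functions were close between the sets. Cytosolic ribosomal protein genes took 14.4% of the neuron-leaning and 13.3% of the other counts, with 1 of 84 genes at 2-fold or more higher. Mitochondrial transcripts took 3.94% and 3.81%. Glycolysis genes took 4.32% and 3.98%, with none of 11 at 2-fold either way. Gapdh2 had a ratio of 0.798, Gapdh1 1.31, Eno 0.984 and Pglym78 1.43. Heat shock and related stress genes stood at 260 against 295 CPM, where stv was at 87.6 against 196, Hsp83 at 95.1 against 74.7 and Hsp26 at 52.6 against 23.6, the ratio of the last moving from 2.23 to 1.28 without the deepest barcode. Activity-regulated genes stood at 190 against 236 CPM, with kay at 75.1 against 149 and Jra at 92.6 against 78.6. The trachea gene counted, pio, was at 62.6 against 51.1.

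Beyond the lists, a rule named the 20 genes with the highest ratio that were counted in at least 10% of neuron-leaning barcodes and stayed at 2-fold or more without the 3 deepest barcodes of the library. In all, 256 genes met its conditions in this direction and 121 in the other. The 20 rested on 20 to 85 counts each. CG3184 had 23 counts and RYBP, a Polycomb-associated gene, 20, with none in the others. Set against a limit of 3 counts in the others, the ratios would be 4.88 and 4.25. The lower limits of their exact intervals were 3.66 and 3.14, and 1.40 and 1.20 without the deepest other barcode. Con, the adhesion gene connectin, had 78 against 7 counts (ratio 7.10, interval 3.29 to 18.2), of which 29 lay in 1 barcode. CngB, a gene of a cyclic nucleotide-gated channel subunit, had 32 against 3 counts (ratio 6.79, interval 2.13 to 34.7).

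The rest of the 20 had ratios between 5.55 and 17.8. They included Synj, the synaptojanin gene of vesicle recycling, with 54 against 6 counts, X11Lbeta, an adaptor gene that binds the amyloid precursor protein, with 56 against 6, and the tetraspanin gene Tsp39D with 77 against 8. Signalling and modifier genes were PI4KIIIalpha, a lipid kinase gene (23 against 2), nmo, the Nemo kinase gene (31 against 3), and lwr, the SUMO-conjugating enzyme gene (21 against 2). Ccn had 71 against 7 counts, of which 41 lay in barcode 1, Pbgs, a heme synthesis gene, 33 against 3, and mtd, the mustard gene, 61 against 7. The others were CG3107, CR44922, CG4538 (ClpX, a mitochondrial protease subunit gene), CG14446 (dtn), CG32544, CG1814 (Nt5c) and CG16798.

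The 10 genes with the lowest ratio had from 28 to 222 counts. Irk3, an inwardly rectifying potassium channel gene, had 42 counts against 171 (ratio 0.156, interval 0.109 to 0.220). Idgf2, a secreted growth factor gene, had 42 against 180. Without the deepest other barcode, 42 of the 171 Irk3 counts and 53 of the 180 Idgf2 counts were left. The ratios were then 0.243 (interval 0.155 to 0.382) and 0.193 (interval 0.125 to 0.294). The gene fray, whose kinase is needed for glial wrapping of axons, had 17 against 62 counts. Of these 62, 16 were left without that barcode (ratio 0.258). The others were CG7607, CG5254, btsz, yip2, hdc, CG13631 and CG32649 (Coq8), at ratios of 0.0955 to 0.170. Without the deepest other barcode these ran from 0.110 to 0.221. By share of barcodes, Irk3 was not lower, with a count in 21.7% of neuron-leaning and 10.6% of other barcodes. At 300 counts Irk3 was expected in 5.54% and 4.56%, and hdc in 2.58% and 1.68%. The rest of the 10 were expected in a smaller share of neuron-leaning than of other barcodes.

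Neuron-leaning barcodes with and without Orco were then set side by side. The 49 with Orco held 350864 counts at a median of 1317 per barcode, and the 71 without held 48721 at a median of 529, so depth went with the split. The rule's neuron genes stood at 7214 CPM with and 7758 CPM without Orco. The odorant receptor genes other than Orco stood at 1174 CPM (412 counts) with and 595 CPM (29 counts) without it, a ratio of 1.97 (interval 1.35 to 2.98). Odorant receptors were thus also counted where Orco was not.

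Other groups were higher without Orco. The 71 barcodes had scrt at 616 against 245 CPM and ppk26 at 287 against 82.7 CPM, ratios with over without Orco of 0.398 (interval 0.260 to 0.625) and 0.288 (interval 0.147 to 0.589). These rest on 30 scrt and 14 ppk26 counts without Orco, and 13 of the 30 lay in barcode 17. Odorant-binding protein genes had 36227 against 19136 CPM and activity-regulated genes 554 against 140. The vesicle gene nSyb, which belongs to the rule, went the other way. It stood at 257 CPM (90 counts) with and 61.6 CPM (3 counts) without Orco, a ratio of 4.17 (interval 1.38 to 20.6). Cha and VAChT had intervals that included equal levels, with ratios of 0.755 and 1.02.

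By depth class, Orco stood at 768 CPM (interval 677 to 869) in the 21 neuron-leaning barcodes with at least 1000 genes and was counted in 20 of them. It was at 1050 CPM (interval 703 to 1508) in the 17 with at least 500 but fewer than 1000 genes and at 580 CPM (interval 371 to 862) in the 82 with fewer than 500, where 22 had a count. The intervals overlap. Odorant-binding protein genes rose from 1.86% to 2.87% and 3.70% of the counts over the same classes.

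The same rule chose barcodes with other values in the other libraries. In library 1 it found 3 of 61 kept barcodes (4.92%, interval 1.03 to 13.7), which held 11 neuron counts, no odorant receptor count and 29 counts of epidermis genes. All 29 lay in 1 of these 3 barcodes. In library 3 the rule found 183 of 231 (79.2%, interval 73.4 to 84.3), at 13002 CPM of its neuron genes and 377 of its glia genes, against 7280 and 1864 in library 2. Orco was not counted there, which allows up to 9.27 CPM. Odorant receptor genes stood at 105 CPM there and at 1872 in library 2, and acj6 at 3.09 and 180.

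Several neuronal genes had like levels in both libraries. Appl stood at 893 CPM in the neuron-leaning barcodes of library 3 and 881 in those of library 2, scrt at 241 and 290, and olfactory signalling partners at 1177 and 1141. Cha and VAChT were at 466 and 556 CPM in library 3, and ionotropic receptors at 349 CPM, against 105 in library 2. The mechanosensory channel gene nompC was at 179 CPM in library 3. With 1 library of each kind, differences between libraries have no replicate check.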

How the data were processed

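Single-cell libraries of larval chemosensory organs were read as the authors' deposited counts, raw whole numbers for each gene symbol in each barcode of 12 bases, per the file headers. STAR 2.7.0 and Seurat 3.1.2 are named in the submitters' processing notes without their role. The counter, genome build, annotation, collapsing of copies, barcode correction and cell filter are not given in the sources used here. If the 21 amplification cycles left uncollapsed copies, true errors exceed the intervals. Libraries shared 1 group and 3 replicates in the labels, and nothing says that they came from separate animals.

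Barcodes with at least 200 genes were kept. CPM is counts per 1000000 over the summed barcodes of a class. Exact Poisson and Clopper-Pearson 95% intervals came from scipy 1.17.1. A ratio's interval came from the binomial split of its counts, and the limit for a count of 0 was 3 counts. Fold counts used genes with at least 20 counts outside the 14 genes of the rule. Shares at equal depth are exact expectations for 300 counts drawn without replacement. Doublets were kept. Scrublet (scanpy 1.11.5) called 2 kept barcodes in the run used as an alternative, but from 2 to 49 over 10 runs with other seeds and numbers of components, added after seeing the data, so its calls are unstable here and the number of doublets is not known. Intervals, fold calls and thinning were tested on simulated data.

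Of 507 listed names, 473 were found in the files, 11 under an older symbol, and 434 had a FlyBase identifier. Named genes were Orco, elav, Snmp1, every odorant receptor gene with at least 5 counts, up to 4 genes with most counts per list, and the 20 highest and 10 lowest ratios described in the text. SK, scrt, Galphas, sNPF, VGlut, CG7708, nompC and the receptor genes with fewer counts were named after their values were seen. The members and lists were chosen with earlier results of these data known. No test was run, since the class lies in 1 library.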

Additional observations from a re-analysis of the deposited data

Results flagged for a closer look

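Barcodes of library 2 with fewer than 200 genes were outside every comparison. The 287 of them with any count held 35354 counts at a median of 124, and 16 counts of Orco in 16 barcodes (453 CPM, interval 259 to 735). That is above the 84.9 CPM that a count of 0 allows, and 41 of these barcodes would meet the rule without the minimum of genes.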

How the results depend on the processing

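The share of kept barcodes that lean to neurons (56.1%) was 43.9% at 100 genes, 70.4% at 500 genes, 32.2% at 4 neuron counts, 73.4% without the glia condition and 38.7% with the rule applied after thinning. The log2 ratio of Orco (1.15) was 0.25 without the glia condition, 0.79 without the deepest kept barcode, 0.40 with the thinned rule and 0.59 with equal weight per barcode. That of the odorant receptors (1.30) was 0.58, 0.37 and 0.60 without the glia condition, with the thinned rule and with equal weight, and 1.03 without the 6 deepest neuron-leaning barcodes. Orco at 600 counts was expected in 27.9%, and at 8-fold 3 receptor and channel genes were gathered. The 784 higher genes became 505 without the 3 deepest barcodes, 456 with the thinned rule, 324 at 50 counts, 2851 with no minimum, 350 at 3-fold and 325 without the 6 deepest neuron-leaning barcodes. The 682 lower genes became 359 without the glia condition, 323 without the deepest barcode, 249 without the 3 deepest, 341 at 50 counts, 1683 with no minimum and 389 at 3-fold. The split of higher and lower genes, 23.3% and 20.3%, became 31.1% and 10.7% without the glia condition, 23.0% and 11.1% without the deepest barcode, 20.4% and 10.1% without the 3 deepest, and 12.8% and 22.3% without the 6 deepest neuron-leaning barcodes.

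Of 28 lists outside the rule, 5 kept their sign under every alternative run. These were odorant receptors (lowest log2 ratio 0.37), olfactory signalling partners (0.57), excitability (0.043), neuropeptides (0.040) and sense organ transcription factors (0.029). Excitability, neuropeptides and sense organ transcription factors thus came close to equal levels. The other 23 did not keep their sign, among them pan-neuronal (lowest log2 ratio -0.20), ciliary transport (-0.12), synaptic vesicle (-0.32), pickpocket (-0.33), gustatory receptor (-0.58) and odorant-binding protein genes (-0.95), and transmitter genes (highest 0.49).

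Among lists and genes at 2-fold or more whose interval left out equality, the log2 ratios that changed sign without the glia condition were TRP and mechanosensory channels 0.88, Ace 1.48, CG16798 -0.59, CG5254 0.21, CG7607 0.94, Irk3 1.25, Nrg 0.21, Ptp10D 1.25, Rfx -0.020, Synj -0.020, Tret1-1 0.97, Vmat 0.18, pain 1.10, stv 1.51 and tutl -0.27. Without the 3 deepest barcodes these were fkh, the only salivary gland gene counted, -0.54, and CG1126 -0.0085. With the thinned rule they were Or33b -1.64, Or47a -0.52, Rfx -0.26 and mtd -0.24. With equal weight they were fkh -0.0093, Ace 0.77, CG1126 -0.30, CG16798 -0.37, Ccn -0.17, Irk3 0.31, Or47a -0.060, Piezo 0.83, Ptp10D 0.78, Vmat 0.50, hdc 0.68 and tutl -0.28. Without the 6 deepest neuron-leaning barcodes CG1126 was at -0.25. The cause was not tested. The removal of the 6 deepest barcodes, the 8-fold limit and the joining of near barcodes were chosen after seeing the data. No paired analysis was possible because the libraries form 1 group and no test was run.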
